A study of Mus musculus with 8 samples.

Results

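The mRNA levels of 36 nuclear receptor coactivator and corepressor genes were compared between AtT20 cells with and without the RXR agonist HX630. The 36 genes were listed by name, as known coactivators, corepressors and chromatin remodelers of nuclear receptors, and not by their response. Earlier results of these data were known when the list was made. All 36 were found through the RefSeq accessions of the probes, among 15320 genes tested. AtT20 is a mouse pituitary corticotroph tumor line that secretes ACTH, and HX630 is a synthetic pan-agonist of the retinoid X receptors. RNA came from 4 samples of cells labelled control, which received no HX630, and from 4 labelled HX630, which received it at 10 μM for 48 hr. Per the methods, cells of both groups were at 50% confluence when they were moved to medium with 1% stripped FBS, and the agonist was added from a stock in DMSO. The study used 1 tumor cell line, 1 dose and 1 time for the arrays, so the values describe that setting. Each sample was read on its own 1-color array. The labels do not say whether the samples of a group came from separate cultures, so the p-values measure only the spread between these samples.

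Nuclear receptors such as RXR act on genes through proteins that bind to them in turn. Without an agonist, corepressors such as NCOR1 bring histone deacetylases to the receptor and keep chromatin closed. With an agonist, the receptor changes shape, releases the corepressor and binds coactivators of the p160 family, which bring acetyltransferases, methyltransferases, SWI/SNF remodelers and the Mediator complex that links to RNA polymerase II. Most of these proteins serve many transcription factors and are made in nearly every cell.

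Every signal below is the log2 of the processed intensity minus the 75th percentile of its array, so that 0 stands for that percentile, and a fold change is the difference of the group means of these signals. A gene with several probes was represented by its brightest. Calls of a rise or a fall needed more than a 1.5-fold difference, which is 0.585 on the log2 scale, together with an adjusted p below 0.01 in limma, with Benjamini-Hochberg adjustment over 28553 probes. The verbs rose and fell are kept for called genes. Levels of different probes were not set against each other, since probes differ in brightness for the same amount of RNA.

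Control arrays had a 75th percentile of intensity from 1335 to 1862 and HX630 arrays from 1802 to 1900, and from 69.7% to 73.5% of the probes were well above background. The correlation of signals between arrays was 0.994 to 0.998 within a group and 0.978 to 0.984 between groups. The control arrays shared a slide and the HX630 arrays shared a different slide, so that slide and treatment cannot be told apart for any value below. All 6 corticotroph markers checked, among them Pomc and Tbx19, were well above background on all 8 arrays. Their summed linear signal was 301 to 376 times the 75th percentile in control cells and 218 to 228 times in HX630 cells. The 6 markers went both ways: at an adjusted p below 0.01, 2 were higher and 4 lower, beside 24.0% and 27.2% of all genes. The pituitary hormone genes Prl and Tshb, the fibroblast gene Lum and the endothelial gene Cdh5 were above background on 0 of 8 arrays. The other such markers were detected: Col1a2, Col3a1, Dcn, Pecam1, Ptprc, Gh and Lhb on all 8 arrays, Col1a1 on 6 and Fshb on 3. The summed signal of the 4 tested fibroblast markers was 0.0987 to 0.123 in control cells and 0.108 to 0.156 in HX630 cells, and that of Pecam1 and Ptprc was 0.231 to 0.261 and 0.159 to 0.178, all in the same unit. Gh and Lhb together gave 0.105 to 0.223 and 0.141 to 0.161. The part of these other cell markers in the results was not tested. In such bulk RNA, fewer cells of a kind and less RNA per cell cannot be told apart.

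Each of the 36 genes had a probe well above background on all 8 arrays, against 72.5% of the named genes on the array. With HX630, 24 of the 36 were higher and 12 were lower, beside 46.4% of all genes higher, and the median log2 fold change was 0.20, beside -0.034 over all genes tested. Most differences were small. Only Smarcd3 was called up and only Tbl1x was called down, which is 5.56% of the 36 genes, beside 19.5% of all genes called, 8.39% called up and 11.2% called down. The median size of the change was 1.20-fold in the 36 genes and 1.22-fold over all genes.

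The size of a change and its test gave different counts. At an adjusted p below 0.01 with no limit on the fold change, 19 of the 36 were higher and 4 were lower, while 13 did not pass. Over all genes these shares were 24.0% higher and 27.2% lower. For the same 23 genes the groups did not overlap on any array, 19 with every HX630 array above every control array and 4 with every one below, beside 28.6% and 32.8% of all genes. The 95% interval of the fold change stayed inside the 1.5-fold limits for 30 of the 36 genes, beside 61.7% of all genes. The 36 genes also had smaller standard errors, with a median of 0.044 against 0.055, so a narrower interval is part of that count. With each array left out in turn, 19 of the 23 genes stayed below the adjusted p of 0.01 every time, and Hdac3, Ncoa2, Ncoa7 and Nsd1 did not.

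**Figure D1:**
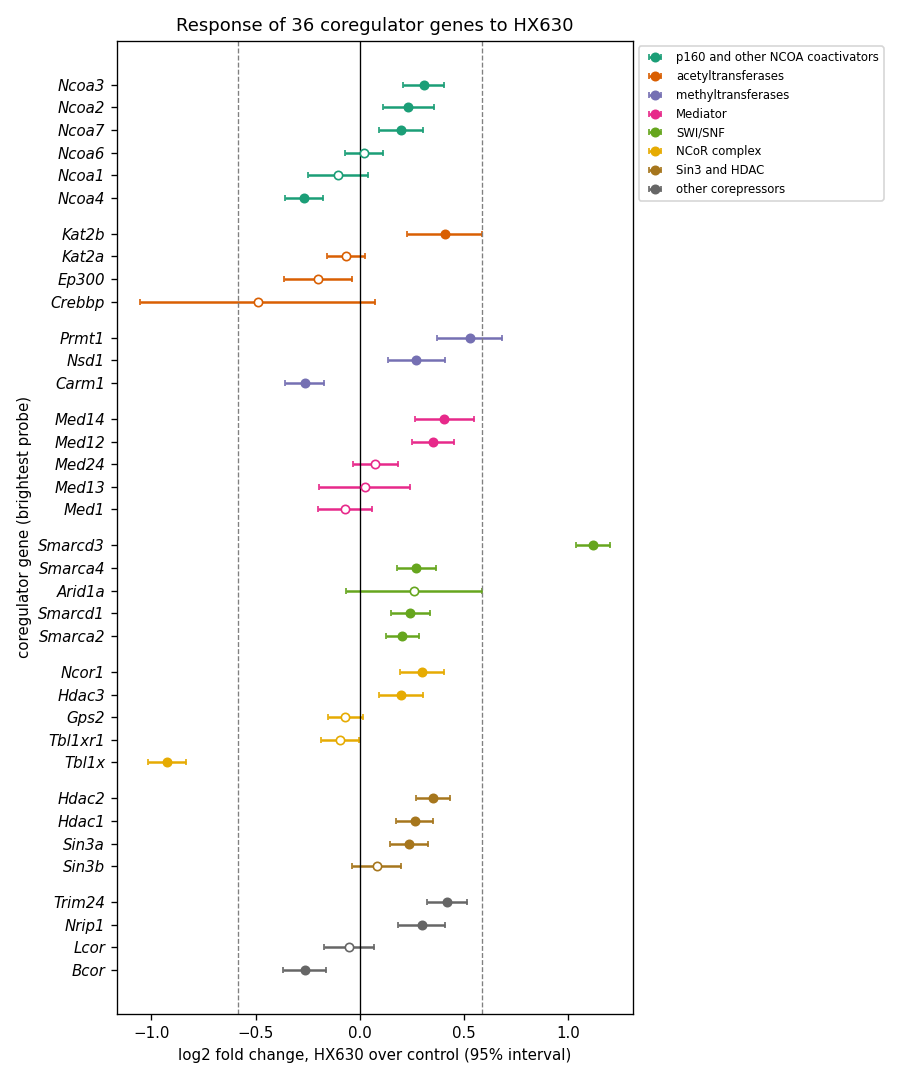
Log2 fold change of each of the 36 genes, HX630 over control, with its 95% interval, grouped and colored by role. Filled circles have an adjusted p below 0.01, and dashed lines mark the 1.5-fold limits, which only Smarcd3 (1.12) and Tbl1x (-0.93) cross with their whole interval.

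**Figure D2:**
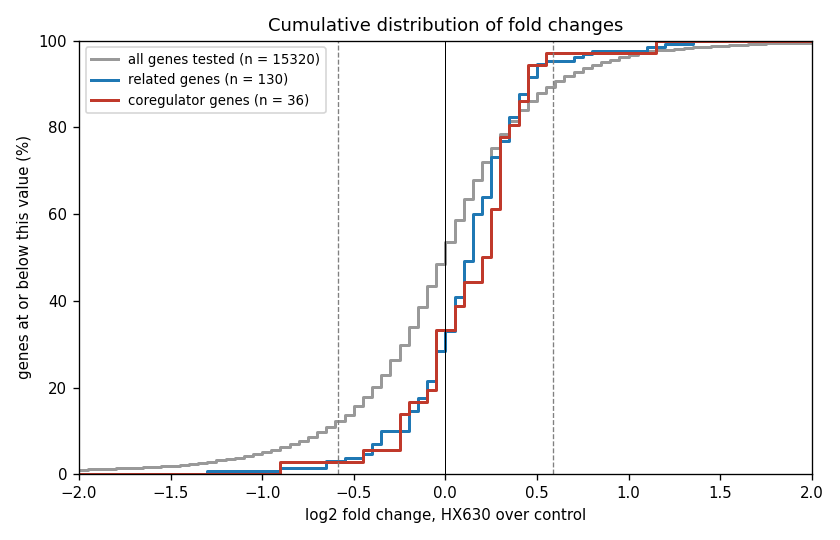
Cumulative share of genes at or below each log2 fold change for all 15320 genes tested (gray), the 130 tested related genes (blue) and the 36 genes (red), read at steps along the x axis. The red curve lies to the right of the gray one around 0 and is steep between the dashed 1.5-fold limits, and its median is 0.20.

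The p160 coactivators NCOA1, NCOA2 and NCOA3 bind the agonist-bound receptor directly. Ncoa3 was higher by 0.31 ± 0.042 (SE, adjusted p = 4.52e-04) and Ncoa2 by 0.23 (adjusted p = 0.00598). The second probe of Ncoa3 gave 0.12 and did not pass (adjusted p = 0.346), and without HX630 array 3 it gave 0.013. Ncoa1, the founding member, did not pass either. Its brightest probe read 1.18, 1.01, 1.03 and 1.06 in control cells and 1.09, 1.01, 0.87 and 0.88 in HX630 cells, and its 2 other probes gave 0.048 and 0.024. These groups overlap, and the sign depends on the probe. Taken as a difference on each array, Ncoa1 minus Ncoa2 was lower with HX630 by 0.34 ± 0.037 (SE) and Ncoa1 minus Ncoa3 by 0.41 ± 0.037, in both cases without overlap between the groups (exact two-sided permutation p = 0.0286). That p is the smallest that 70 regroupings of 8 arrays can give, and it is not adjusted over the 10 pairs of related genes that were compared. Ncoa2 minus Ncoa3 differed by less, -0.073 ± 0.023, also without overlap (exact permutation p = 0.0286).

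The other genes named NCOA are not p160 proteins. Ncoa4, which binds the androgen receptor and also carries ferritin to autophagy, read 1.48, 1.57, 1.51 and 1.54 in control cells and 1.32, 1.24, 1.26 and 1.21 in HX630 cells. It was lower by 0.27 on the log2 scale (adjusted p = 6.08e-04), but turned to 0.016 with spike-in scaling. Ncoa7 was higher by 0.20 (adjusted p = 0.00632), and it did not pass once any of the 8 arrays was left out. Ncoa6, a subunit of a histone methyltransferase complex, gave 0.020 with a 95% interval of -0.071 to 0.11. In this family 3 of 6 genes were higher and 1 was lower at the adjusted p, beside 24.0% and 27.2% of all genes.

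The acetyltransferases mark histones at active genes. Crebbp, which encodes CBP, had the most variable signal of the 36 genes. It read 2.94, 3.43, 3.59 and 3.66 in control cells and 2.35, 2.78, 3.23 and 3.29 in HX630 cells, so that the groups overlap, and the array with replicate number 1 was the lowest in both. Its fold change of -0.49 ± 0.24 (SE) did not pass (adjusted p = 0.119), with a 95% interval of -1.05 to 0.074. Its paralog Ep300 gave -0.20 (adjusted p = 0.0391), and the difference between the pair overlapped between the groups (exact permutation p = 0.286). The other pair of paralogs separated. Kat2b, also known as PCAF, read -1.12, -1.37, -1.39 and -1.41 in control cells and -0.80, -0.90, -1.01 and -0.95 in HX630 cells, higher by 0.41 ± 0.077 (SE, adjusted p = 0.00248). Kat2a, also known as GCN5, gave -0.065 (adjusted p = 0.19), and Kat2a minus Kat2b was lower with HX630 by 0.47 ± 0.071, without overlap (exact permutation p = 0.0286).

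Among the methyltransferases, which modify arginines or lysines of histones and coactivators, all 3 passed the adjusted p. Of these, 2 were higher and 1 was lower, beside 24.0% and 27.2% of all genes. Prmt1, the main arginine methyltransferase of most cells, read 3.09, 2.79, 3.06 and 3.05 in control cells and 3.54, 3.53, 3.51 and 3.52 in HX630 cells. Its change of 0.53 ± 0.067 (SE, adjusted p = 2.8e-04) was the nearest to the fold limit among the genes not called, and its second probe gave 0.47. Prmt1 passed the fold limit, at 0.60 to 0.81, with the median, quantile normalization, either spike-in scaling or normexp in place of the 75th percentile. Carm1, an arginine methyltransferase that binds p160 proteins, was lower by 0.27 on the log2 scale, without overlap, but turned to 0.019 with spike-in scaling. The lysine methyltransferase gene Nsd1 was higher by 0.27 on its brightest probe (adjusted p = 0.0047), and its other probe gave 0.13 (adjusted p = 0.0974).

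Of the 5 Mediator genes, 2 were higher at the adjusted p and none was lower on the brightest probe. Over all genes these shares were 24.0% and 27.2%. Med12, part of the kinase module, was higher by 0.35 (adjusted p = 2.44e-04), and its second probe gave 0.29 and did not pass (adjusted p = 0.0227). Med13 of the same module gave 0.023 with an interval of -0.20 to 0.24. The other 3 had probes that differed in sign. Med14, the scaffold of the complex, read 1.09, 0.90, 0.89 and 0.89 in control cells and 1.41, 1.40, 1.34 and 1.25 in HX630 cells on its brightest probe, higher by 0.41 (adjusted p = 7.63e-04). Its second probe gave 0.51, whereas its dimmest, at -4.07, -3.79, -3.76 and -3.91 in control cells and -4.05, -4.13, -4.07 and -3.92 in HX630 cells, gave -0.16 and did not pass. Med1, the subunit that binds nuclear receptors directly, read 1.40, 1.16, 1.24 and 1.28 in control cells and 1.27, 1.19, 1.20 and 1.14 in HX630 cells on its brightest probe. Its 4 probes gave -0.070, 0.068, -0.037 and -0.12, none of which passed, with an interval of -0.20 to 0.060 on the brightest. Med24 read 1.83, 1.91, 1.86 and 1.95 in control cells and 1.92, 1.92, 1.96 and 2.06 in HX630 cells, which overlap. A dimmer Med24 probe, at 0.50, 0.62, 0.46 and 0.35 against 0.26, 0.24, 0.21 and 0.15, was lower by 0.27 on the log2 scale (adjusted p = 0.00588).

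**Figure D3:**
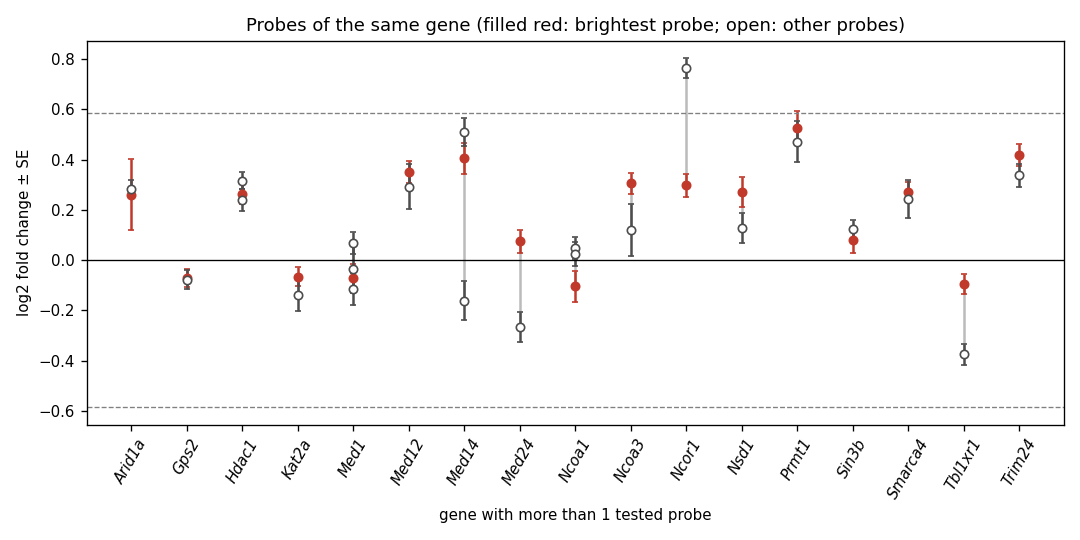
Log2 fold change with its standard error for every tested probe of the 17 genes with more than 1 tested probe, with the brightest probe filled in red and the dashed lines at the 1.5-fold limits. In 13 of the 17 genes the probes have the same sign, and the widest gaps are in Med14 (0.67) and Ncor1 (0.47).

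The SWI/SNF remodelers move nucleosomes with energy from ATP. All 5 of these genes were higher with HX630, and 4 of the 5 passed the adjusted p, beside 46.4% and 24.0% of all genes. Of 6 other scalings tried, quantile normalization and normexp could change this, and all 5 stayed higher with both. The rest shift all genes up by the same amount, so these genes had to stay higher. Smarcd3 encodes BAF60c, a subunit that links the complex to nuclear receptors and other transcription factors and is best known from heart and skeletal muscle. It read -0.61, -0.55, -0.63 and -0.60 in control cells and 0.50, 0.50, 0.50 and 0.57 in HX630 cells. Both groups were tight, with SDs of 0.034 and 0.037 (n = 4 each), and lay far apart. Smarcd3 rose by 1.12 ± 0.035 (SE, adjusted p = 2.55e-07), which is 2.17-fold, on the 1 probe the array holds for it. It stayed called with each array left out in turn.

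The SMARCD subunit occurs as 1 of 3 paralogs in each complex. The paralog Smarcd1 was higher by 0.24 (adjusted p = 0.00117), and Smarcd1 minus Smarcd3 was lower with HX630 by 0.87 ± 0.039, without overlap (exact permutation p = 0.0286). The third, Smarcd2, which is not one of the 36 genes and is named after its value was seen, rose by 0.72 ± 0.065 (adjusted p = 4.11e-05). The ATPase genes Smarca4 and Smarca2 were higher by 0.27 and 0.20, and their difference did not separate the groups (exact permutation p = 0.286). A dimmer Smarca4 probe gave 0.24 and did not pass (adjusted p = 0.0242). Arid1a, a DNA-binding subunit, gave 0.26 ± 0.14 on its brightest probe (adjusted p = 0.146), with control arrays between 0.60 and 1.06 and HX630 arrays between 0.87 and 1.36. As with Crebbp, replicate number 1 was the lowest in both groups. The second Arid1a probe gave a like value of 0.28 with far less spread, and passed (adjusted p = 2.99e-04).

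In the NCoR complex, NCOR1 is the scaffold, HDAC3 the deacetylase, and GPS2, TBL1X and TBL1XR1 are the other core subunits. These genes went in different directions. Tbl1x read 2.04, 2.12, 2.03 and 2.09 in control cells and 1.19, 1.13, 1.18 and 1.08 in HX630 cells, which are far apart. It fell by 0.93 on the log2 scale (SE 0.040, adjusted p = 8.74e-07) to 52.6% of control, on its only probe and with each array left out in turn. TBL1XR1 is a close paralog of TBL1X, and both help to exchange corepressors for coactivators. The brightest probe of Tbl1xr1 gave -0.095 (adjusted p = 0.0683) and its other probe -0.37 (adjusted p = 1.66e-04). Tbl1x minus Tbl1xr1 was lower with HX630 by 0.83 ± 0.048, without overlap (exact permutation p = 0.0286).

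Ncor1 moved the other way. Its brightest probe read 1.26, 1.10, 1.23 and 1.20 in control cells and 1.55, 1.51, 1.47 and 1.45 in HX630 cells, higher by 0.30 ± 0.046 (adjusted p = 8.43e-04). A dimmer Ncor1 probe read -2.98, -3.09, -2.995 and -3.02 in control cells and -2.24, -2.21, -2.27 and -2.31 in HX630 cells, and its 0.76 ± 0.039 (adjusted p = 1.92e-06) passed the fold limit. Neither probe overlapped between the groups, and the call of Ncor1 thus depends on the probe that stands for it. Hdac3 was higher by 0.20 (adjusted p = 0.00627), which passed in 1 of the 8 fits with an array left out. Gps2 gave -0.070 with an interval of -0.16 to 0.014, and its sign turned under 5 of the 6 other scalings.

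**Figure D4:**
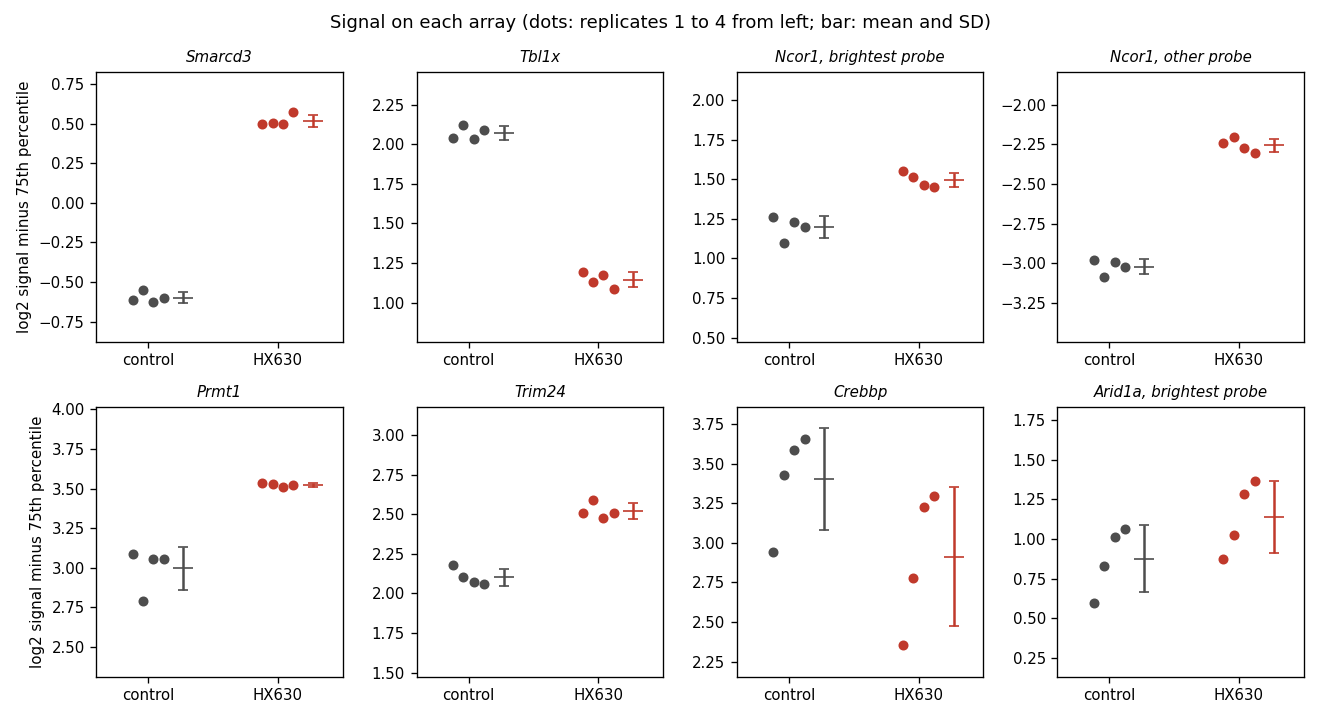
Signal of 8 probes of the 36 genes on each array, on the log2 scale relative to the array's 75th percentile, for 4 control (gray) and 4 HX630 (red) arrays, with the mean and SD beside them on panels of equal height. The groups of Smarcd3, Tbl1x, both Ncor1 probes, Prmt1 and Trim24 do not overlap, while those of Crebbp and the brightest Arid1a probe do.

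SIN3A and SIN3B are scaffolds that hold HDAC1 and HDAC2. Hdac2 read -3.25, -3.15, -3.18 and -3.21 in control cells and -2.82, -2.86, -2.83 and -2.88 in HX630 cells, higher by 0.35 ± 0.035 (adjusted p = 7.54e-05). Hdac1 was higher by 0.26, and its 2 other probes gave 0.32 and 0.24, all 3 past the adjusted p. The pair did not separate by their difference of 0.090 (SE 0.040, exact permutation p = 0.0857). Sin3a was higher by 0.24 (adjusted p = 0.00117) and Sin3b gave 0.081 (adjusted p = 0.207), with overlap of their difference (exact permutation p = 0.143). All 4 genes were higher, and 3 of the 4 passed the adjusted p, beside 46.4% and 24.0% of all genes. All 4 stayed higher with quantile normalization and normexp, although Sin3a gave 0.13 with normexp and did not pass (adjusted p = 0.0325). The rest of the 6 other scalings shift all genes up and could not lower them.

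Of the remaining corepressors, Trim24, which binds receptors with agonist and a histone mark, read 2.18, 2.10, 2.07 and 2.06 in control cells and 2.51, 2.59, 2.48 and 2.51 in HX630 cells. It was higher by 0.42 ± 0.042 (adjusted p = 7.78e-05), and by 0.34 on its second probe. Nrip1, which encodes the agonist-dependent corepressor RIP140, was higher by 0.30 (adjusted p = 0.00118), and with normexp by 0.13, which did not pass (adjusted p = 0.0759). Bcor, a corepressor that acts with BCL6 and in a Polycomb complex, was lower by 0.26 on the log2 scale (adjusted p = 0.0012), but turned to 0.019 with spike-in scaling. Lcor, another agonist-dependent corepressor, gave -0.052 with an interval of -0.17 to 0.069.

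RXR dimers bind DNA at repeats of AGGTCA, so the promoters were searched for these letters. Windows are shown for the called genes, Smarcd3 and Tbl1x, and for Trim24, chosen for its AGGTCA matches after the search. RefSeq windows on GRCm38.p6, which run from 250 bases before to 50 bases after a start site, were found for 29 of the 36 genes. In them AGGTCA and the Sp1-type GC box GGGCGG were searched on both strands, and matches are in capitals. The first is Smarcd3, at chr5:24601953-24602252 on the minus strand, the second Tbl1x, at chrX:77510977-77511276 on the plus strand, and the third 1 of 2 windows of Trim24, at chr6:37900237-37900536 on the plus strand.
Smarcd3: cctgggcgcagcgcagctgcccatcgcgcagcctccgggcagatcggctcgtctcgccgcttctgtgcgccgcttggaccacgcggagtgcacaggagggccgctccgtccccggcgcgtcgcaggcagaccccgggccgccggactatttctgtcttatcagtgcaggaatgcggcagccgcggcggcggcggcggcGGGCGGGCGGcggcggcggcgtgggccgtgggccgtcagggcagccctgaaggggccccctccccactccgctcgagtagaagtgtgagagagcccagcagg
Tbl1x: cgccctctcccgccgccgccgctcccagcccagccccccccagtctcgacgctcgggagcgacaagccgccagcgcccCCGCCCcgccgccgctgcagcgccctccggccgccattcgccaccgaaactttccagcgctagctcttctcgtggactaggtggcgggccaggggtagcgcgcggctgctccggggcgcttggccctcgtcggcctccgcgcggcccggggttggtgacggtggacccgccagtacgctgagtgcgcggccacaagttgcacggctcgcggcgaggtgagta
Trim24: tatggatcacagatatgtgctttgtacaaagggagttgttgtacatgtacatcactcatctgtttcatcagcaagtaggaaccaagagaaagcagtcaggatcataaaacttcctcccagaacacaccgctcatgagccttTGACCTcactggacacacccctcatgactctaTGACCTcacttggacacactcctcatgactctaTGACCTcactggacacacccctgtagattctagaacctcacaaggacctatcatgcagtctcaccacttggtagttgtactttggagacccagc

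The Smarcd3 window holds 2 overlapping GC boxes and the Tbl1x window 1, and neither holds the AGGTCA letters. The Trim24 window shown holds 3 copies of TGACCT, the reverse complement of AGGTCA, and its other window holds 4 GC boxes. AGGTCA was found for 3 of the 29 genes, Ncoa4, Ncoa6 and Trim24, beside 18.1% of all 27025 genes with a window and 16.3% of all 32851 windows. The direct repeat AGGTCANAGGTCA was found for 0 of the 29, beside 0.048% of all genes and 0.04% of all windows. GC boxes were found for 24 of the 29 genes, beside 38.2% of all genes and 35.7% of all windows. These are matches of letters only, and binding was not measured here.

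A wider list of 131 other subunits and coregulators gave the setting for these values, of which 130 were tested. Of these, 6 were called up and 5 down (8.46%), 46 were higher and 17 lower at the adjusted p, and the median was 0.10. Over all genes 19.5% were called, 24.0% were higher and 27.2% lower at the adjusted p, and the median was -0.034. The largest rises were in Prmt2, an arginine methyltransferase (1.35 ± 0.052), Chd3, an ATPase of the NuRD complex (1.15 ± 0.042), and Dpf1, a SWI/SNF subunit of neurons (1.09 ± 0.051). The largest falls were in the class IIa deacetylase genes Hdac5 and Hdac7 and in Pnrc1, a coactivator of nuclear receptors. Hdac5 read 4.91, 4.93, 4.79 and 4.82 in control cells and 3.74, 3.49, 3.47 and 3.53 in HX630 cells, and thus fell by 1.30 to 40.6% of control. Hdac7 fell by 0.93 and Pnrc1 by 0.69. The other called genes, named after their values were seen, were Smarcd2, Cdk19 of the Mediator kinase module (0.80), Dpy30 (0.65), Hdac11 (-0.67) and Hdac9 (-0.59). Hdac9 lost its call with any of 4 arrays left out and under each of the 6 other scalings. Hdac11 lost its call under 3 of those scalings (normexp and both spike-in scalings), at its smallest -0.38, and Dpy30 lost its call with normexp (0.54). Pnrc1 lost its call under both spike-in scalings (-0.41 and -0.47).

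Set beside each other by class, a grouping made after the values were seen, the deacetylase genes differed in direction. The class I genes Hdac1, Hdac2 and Hdac3 were higher at the adjusted p and Hdac8 gave 0.13 (adjusted p = 0.214). Of class IIa, whose proteins bind the NCoR complex, Hdac5, Hdac7 and Hdac9 fell, and Hdac4 gave -0.034 (adjusted p = 0.573), with a sign that turned under other scalings. Of class IIb, Hdac6 was higher by 0.38 and Hdac10 lower by 0.22 at the adjusted p, the latter again with a sign that depends on the scaling. The difference between classes was not tested.

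**Figure D5:**
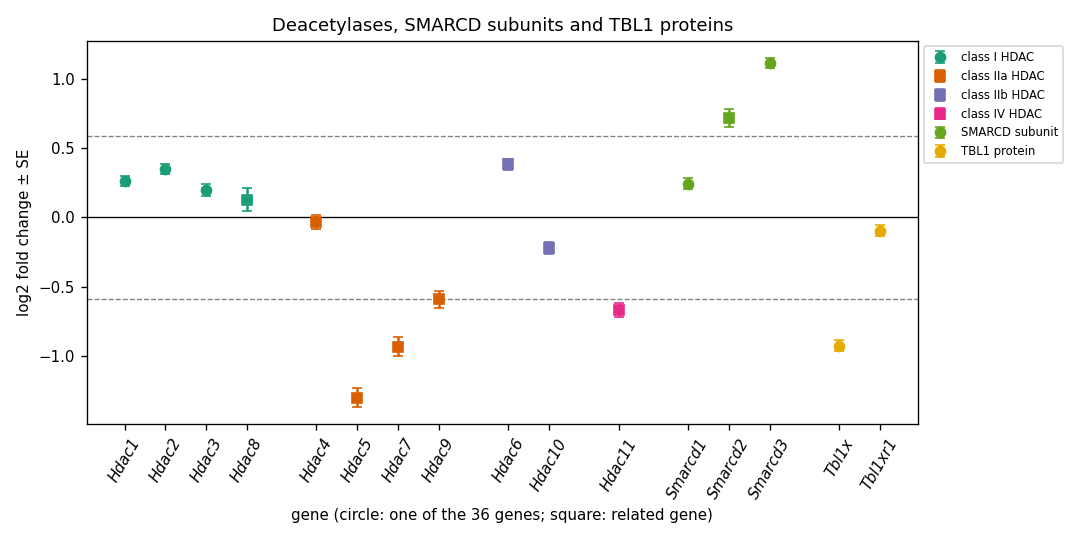
Log2 fold change with its standard error for the deacetylase genes by class, the 3 SMARCD subunits and the 2 TBL1 proteins, with circles for the 36 genes, squares for related genes and dashed lines at the 1.5-fold limits. Hdac5 (-1.30), Hdac7 (-0.93) and Tbl1x (-0.93) lie lowest, and Smarcd2 (0.72) and Smarcd3 (1.12) highest.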

How the data were processed

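The authors deposited the output of Agilent Feature Extraction 10.7.3.1 for each 1-color array, in which the processed signal is an intensity after background subtraction, and a log2 table made in GeneSpring 12.0. Columns that could not be tied to a sample numbered 0. Control spots (1377 of 44397) and outlier spots were left out. From each log2 processed signal the array's 75th percentile was subtracted and the spots of a probe averaged, which gave 39429 probes and differed from the deposited log2 values by a median of at most 0.0014 on any array. Probes well above background on at least 4 of 8 arrays were tested with lmFit and eBayes (limma 3.58.1, R 4.3.3). Names came from RefSeq accessions in a GRCm38.p6 table (26055 probes), used for names only. The code was tested on simulated data. The number of arrays limits the precision.

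The 36 genes and the other lists were chosen with earlier results of these data known. All 36 genes are named, with values per array for genes with a called probe or with probes of different sign, and the 3 largest rises and falls of the related list. Pairs were compared by an exact two-sided permutation test. The comparison had no block for the replicate number. Alternatives were other scalings, normexp (offset 16, on the median spot intensity), the deposited table, other filters, tests and thresholds, the block, and each array left out.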

Additional observations from a re-analysis of the deposited data

Results flagged for a closer look

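In 12 of 128 groups of 4 arrays checked, which are both groups of the 58 tested probes of the 36 genes and of the 6 largest related changes, 1 array lay far from the other 3, while chance alone gives about 1 in 20, or 6.4. The value given is the gap of that array to its nearest neighbor divided by the range of the group, and far means above Dixon's 95% critical value for 4 samples. In the control group the ratio was 0.858 for Bcor and 0.891 for Prmt1, in both with array 2 the lowest, and 0.851 for Kat2b and 0.947 for Med14, in both with array 1 the highest. Among dimmer probes it was 0.898 for Med1 and 0.862 for Ncoa1 with control array 2 the lowest, and 0.875 for the other Ncoa1 probe with control array 1 the highest. It was 0.939 for a dimmer Hdac1 probe and 0.886 for the dimmer Nsd1 probe with control array 2 the highest. In the HX630 group it was 0.89 for Ncoa7 and 0.939 for the dimmer Ncoa3 probe with array 3, and 0.902 for Smarcd3 with array 4, all the highest. Without the array in question, the log2 fold change became -0.30 for Bcor, 0.46 for Prmt1, 0.48 for Kat2b, 0.46 for Med14, 0.16 for Ncoa7 and 1.10 for Smarcd3. It became -0.18 for the Med1 probe, and -0.015 and 0.087 for the Ncoa1 probes, of which the first turned its sign. It became 0.27 for the Hdac1 probe, 0.18 for the Nsd1 probe and 0.013 for the Ncoa3 probe.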

How the results depend on the processing

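Smarcd3 stayed called up and Tbl1x called down under every alternative run. Of the values of single genes under alternatives, 983 kept their sign and side of the threshold. Another 30 turned their sign, 35 passed the threshold anew and 2 lost it. Alternatives that change only the test or a threshold leave the fold change as it was, so its sign could not turn. Most of those that passed anew did so only because the fold limit was dropped. Control arrays and HX630 arrays differ by slide, and no alternative removes that. Of the 36 genes, the count called up became 2 with quantile normalization, the median or normexp, 8 with spike-in scaling and 5 with the detected spike-ins alone, a scaling chosen after seeing the data. The count lower at an adjusted p below 0.01 became 2 with the median or normexp and 1 with either spike-in scaling. The spike-in scalings moved the median of all genes to 0.25 and 0.19. They shift all genes of an array by the same amount, so the median of the 36 genes had to stay above it by 0.24. That gap was 0.20 with quantile normalization and 0.18 with normexp. With the spike-in scalings the related genes called were 30 up and 2 down, or 21 and 2. The probes called were 5060 up and 1593 down, or 4180 and 1889, beside 2133 and 3184. The share of calls that were up was 40.1%, 49.8% with quantile normalization, 50.3% with the median, and 76.1% or 68.9% with the spike-ins. Normexp called 1938 probes and 3 related genes down, with 49.2% of calls up. With no fold limit, 19 of the 36 genes were called up and 4 down, 46 related genes up and 17 down, and 5763 probes up and 7243 down.

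With each array left out in turn, probes called ranged from 1849 to 2567 up and from 2783 to 3370 down. The 36 genes stayed at 1 up and 1 down, with 15 to 17 higher and 4 lower at the adjusted p, and the related genes at 6 up and 4 to 5 down. Replicate numbers were not taken to pair the samples: deviations from the group means correlated over 0.1 in 3 of 4 same-numbered pairs (from -0.0093 to 0.52), and 5 of 8 arrays correlated best with their own number. With the replicate block, 2213 probes were called up and 3345 down, the 36 genes kept 1 and 1, with 20 higher and 5 lower at the adjusted p, and the related genes 6 and 5. Under that block Crebbp gave an SE of 0.066 (adjusted p = 0.00279) and Arid1a 0.034 (adjusted p = 0.00247).

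Signs turned for genes with small changes. With spike-in scaling these were Bcor (0.019), Carm1 (0.019), Ep300 (0.082), Gps2 (0.21), Kat2a (0.22), Lcor (0.23), Med1 (0.21), Ncoa1 (0.18), Ncoa4 (0.016) and Tbl1xr1 (0.19). With the detected spike-ins they were Ep300 (0.019), Gps2 (0.15), Kat2a (0.16), Lcor (0.17), Med1 (0.15), Ncoa1 (0.12) and Tbl1xr1 (0.13). With the median they were Gps2 (0.0072), Kat2a (0.012), Lcor (0.026) and Med1 (0.0073), with normexp Gps2 (0.048), Kat2a (0.076) and Lcor (0.088), and with quantile normalization Gps2 (0.020) and Lcor (0.0040). With an array left out, Med13 ranged from -0.066 (control array 2) to 0.079, also turning at -0.0020 (HX630 array 1), and Ncoa6 from -0.0022 (HX630 array 4) to 0.036. Med24 turned to -0.096 with the mean of its probes. Pnrc1 was not called under either spike-in scaling. The shifts by scaling come from the construction of each scaling, and the other causes were not tested.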
